A study of Homo sapiens with 12 samples.

Results

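Genes of the YAP/TEAD programme were followed in lung cancer cells after NRF2 knockdown. The group comprised 10 of the 57815 annotated genes measured by RNA-seq: ANKRD1, 6 other genes known as YAP/TEAD targets (CCN1, CCN2, AMOTL2, AJUBA, LATS2 and AXL), the AMOTL2 paralog AMOTL1, and the YAP1 and TEAD1 genes themselves. The group was chosen by the measured FPKM of ANKRD1, which was higher in H2023 cells after NRF2 siRNA, so the values of ANKRD1 are given as a description with no test. The question was whether the other 9 genes moved with it. CCN1 and CCN2 are also known as CYR61 and CTGF.

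The 3 KEAP1-mutated non-small cell lung cancer lines were transfected with control siRNA or NRF2 siRNA and harvested after 48 h. A549 and H2023 are lung adenocarcinoma lines and H460 is a lung large cell carcinoma line, and all of them carry a mutation of KEAP1, the adaptor that directs NRF2 to degradation. Each line had 2 control siRNA libraries and 2 NRF2 siRNA libraries, 12 in all. The NRF2 siRNA libraries of a line were made with different molecules, siRNA 28 and siRNA 30, and were treated as replicates. The spread within an NRF2 siRNA group therefore holds the difference between the siRNAs, while the study's methods describe the control libraries as biological duplicates and count the siRNAs of a line as such. The p-values measure the spread between these libraries. A549 libraries were made after rRNA removal and those of H2023 and H460 after polyA selection, so line and protocol cannot be told apart between A549 and the others. Expression is given in FPKM, the number of sequenced fragments scaled by transcript length and by the library's total.

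In the Hippo pathway, a kinase cascade ending in LATS1 and LATS2 phosphorylates YAP1 and its paralog TAZ and keeps them out of the nucleus. Unphosphorylated YAP1 binds the TEAD transcription factors and activates genes that carry the TEAD motif GGAATG, among them ANKRD1, CCN1 and CCN2, which are widely used as readouts of YAP activity. Some of the targets, such as LATS2 and AMOTL2, act back on the pathway as inhibitors. NRF2, encoded by NFE2L2, is a separate transcription factor that drives antioxidant and detoxification genes and accumulates when KEAP1 is mutated.

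The promoters of the genes were searched for the TEAD motif, because target genes of TEAD are expected to hold it near the start site or in enhancers. RefSeq promoter sequences (GRCh38.p14) were matched for 8 of the 10 genes, with 11 windows of 250 bases before an annotated start. CCN1 and TEAD1 were not matched. The motif GGAATG, or its reverse complement CATTCC, was present in 6 of the 11 windows, each from a different gene, against 11.9% of all 35116 promoters. ANKRD1 and CCN2 held 2 or more copies, as did 0.94% of all promoters. The windows of ANKRD1, CCN2, AMOTL2, AXL and LATS2 are shown because in both H2023 and H460 the values of these genes after NRF2 siRNA lay above those of the controls, LATS2 holding no copy. That of AMOTL1 is shown as the paralog of AMOTL2, also with no copy. They lie at chr10:90921088-90921337 on the minus strand (ANKRD1), chr6:131951373-131951622 on the minus strand (CCN2), chr3:134374448-134374697 on the minus strand (AMOTL2, one of 2 windows), chr19:41226505-41226754 on the plus strand (AXL, one of 2 windows), chr13:21061587-21061836 on the minus strand (LATS2) and chr11:94768106-94768355 on the plus strand (AMOTL1). Each sequence is written 5′ to 3′ along the gene's strand, and capitals mark the motif in either orientation.
ANKRD1: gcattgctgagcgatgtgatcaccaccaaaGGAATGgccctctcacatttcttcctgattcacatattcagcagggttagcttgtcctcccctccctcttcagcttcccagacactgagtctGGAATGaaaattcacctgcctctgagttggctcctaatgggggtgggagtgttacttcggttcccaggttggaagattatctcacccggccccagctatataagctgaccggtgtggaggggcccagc
CCN2: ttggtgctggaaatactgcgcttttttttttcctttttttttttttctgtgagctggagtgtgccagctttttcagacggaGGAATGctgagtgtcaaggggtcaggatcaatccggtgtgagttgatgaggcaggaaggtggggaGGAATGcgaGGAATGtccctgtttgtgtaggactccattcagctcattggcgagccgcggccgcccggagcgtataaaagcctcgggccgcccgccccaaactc
AMOTL2: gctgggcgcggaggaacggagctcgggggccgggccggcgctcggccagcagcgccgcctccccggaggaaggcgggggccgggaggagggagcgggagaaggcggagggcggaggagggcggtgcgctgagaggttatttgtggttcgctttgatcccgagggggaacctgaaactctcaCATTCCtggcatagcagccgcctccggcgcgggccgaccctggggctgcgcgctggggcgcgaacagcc
AXL: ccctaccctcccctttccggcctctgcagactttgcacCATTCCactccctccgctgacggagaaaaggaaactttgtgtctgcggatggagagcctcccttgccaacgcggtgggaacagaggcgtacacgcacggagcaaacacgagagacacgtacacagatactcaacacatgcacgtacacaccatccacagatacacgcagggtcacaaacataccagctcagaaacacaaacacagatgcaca
LATS2: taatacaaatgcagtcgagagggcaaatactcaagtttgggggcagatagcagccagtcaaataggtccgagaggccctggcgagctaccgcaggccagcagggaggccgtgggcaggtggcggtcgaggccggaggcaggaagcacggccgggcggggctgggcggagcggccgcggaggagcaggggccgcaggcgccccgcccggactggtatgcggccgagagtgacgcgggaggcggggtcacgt
AMOTL1: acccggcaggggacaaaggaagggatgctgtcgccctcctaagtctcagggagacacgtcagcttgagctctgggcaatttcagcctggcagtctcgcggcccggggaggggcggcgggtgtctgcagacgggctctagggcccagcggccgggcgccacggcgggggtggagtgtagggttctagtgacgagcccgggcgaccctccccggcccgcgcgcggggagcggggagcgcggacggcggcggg
The ANKRD1 copies began 220 and 128 bases before the start site. The CCN2 copies began 169, 104 and 95 bases before it, and the single AMOTL2 copy 69 bases before it. One window each of AJUBA (59 bases before the start), AXL (212 bases) and YAP1 (162 bases) also held a copy, while LATS2 and AMOTL1 held none. A match of letters is no evidence of binding. The core of the antioxidant response element to which NRF2 binds, TGACNNNGC on either strand, was found in 2 of the 11 windows (one of AXL and that of LATS2) and in 10.9% of all promoters.

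The knockdown itself was present in every line. NFE2L2 fell to 0.190 of its control level in A549 cells, 0.0610 in H2023 cells and 0.0768 in H460 cells (adjusted p in limma 0.0178, 0.00529 and 0.0111, respectively), and the NRF2 target NQO1 at 0.193, 0.111 and 0.267. The number of genes at 1 FPKM or more ranged from 12732 to 13909 over the 12 libraries, and the 10 most abundant genes took 35.2% to 44.3% of summed FPKM in A549 and 10.4% to 24.0% in the other lines. The files give no read counts, so depth is unknown, but the steps between low values place each library at 92.6% to 107% of the first control library of its line. Keratin genes such as KRT8 and KRT18 were abundant in all lines, whereas the lung lineage markers NKX2-1, SFTPB and SFTPC stayed below 1 FPKM in every library, and EPCAM and CDH1 did not pass 1.19 FPKM in H460. Summed fibroblast marker genes ranged from 0.519 to 14.4 FPKM and endothelial ones from 0.000361 to 0.213 FPKM. Summed immune marker genes ranged from 14.7 to 59.1 FPKM, mostly CD68 in A549 and H2023, and CD68 and CD14 in H460.

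ANKRD1 encodes an ankyrin repeat protein best known as a stretch-responsive transcriptional cofactor of muscle, and lies on chromosome 10 at 92671853 to 92680844 (GRCh37, minus strand). In H2023 it was at 1.88 and 1.70 FPKM with control siRNA, at 37.9 FPKM with siRNA 28 and at 61.5 FPKM with siRNA 30, a ratio of means of 27.8. In H460 it was at 1.79 and 0.825 FPKM with control siRNA, and at 3.88 and 3.81 FPKM with siRNA 28 and 30, a ratio of 2.94. In A549 it was at 1.94 and 1.74 FPKM against 3.05 and 2.54 FPKM, a ratio of 1.52. The control levels were alike and low in the 3 lines, and the NRF2 siRNA libraries lay above the controls in each of them. The difference was much larger in H2023 than in the other lines.

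**Figure D1:**
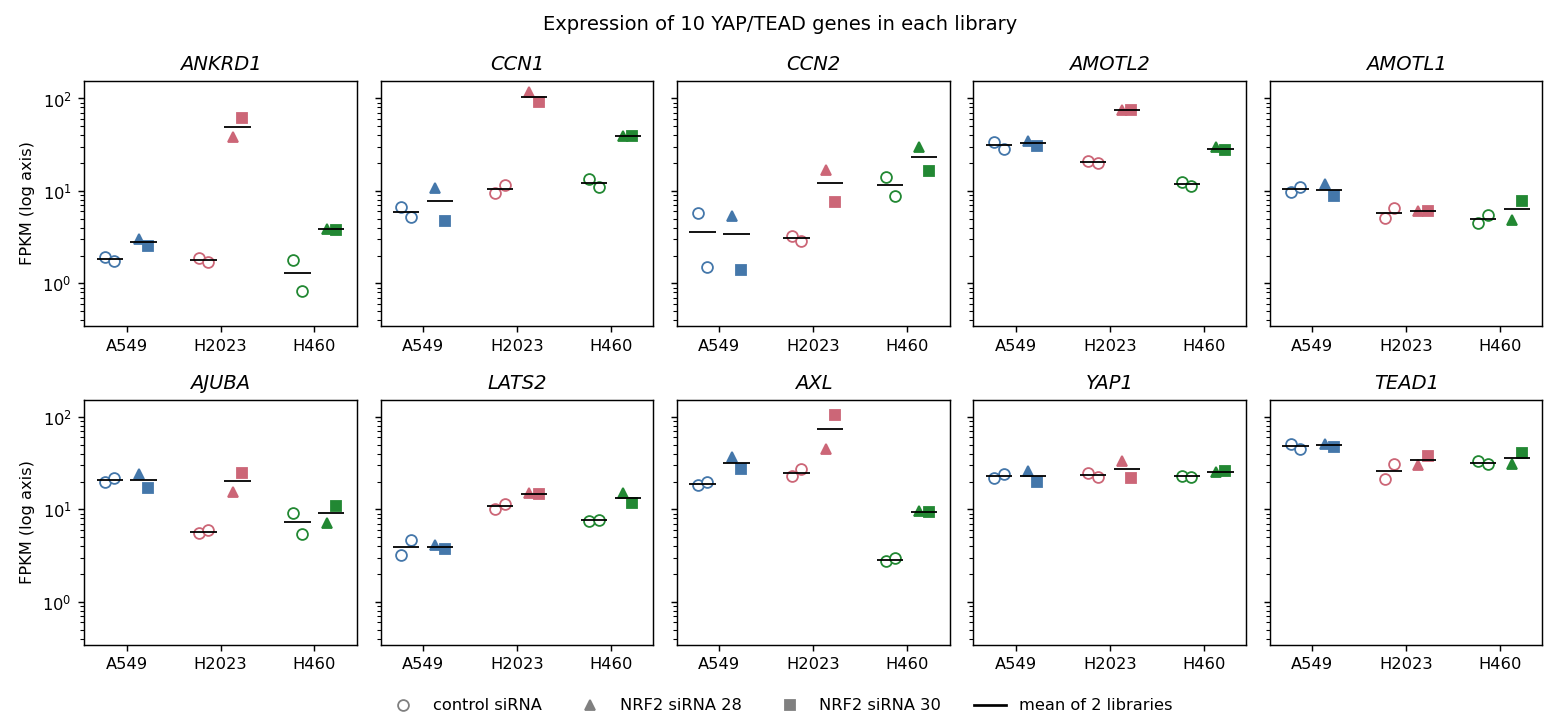
FPKM (log axis) of the 10 genes in each of the 12 libraries, by cell line. Open circles are control siRNA, triangles NRF2 siRNA 28, squares NRF2 siRNA 30, and lines the mean of 2 libraries. CCN1, CCN2, AMOTL2 and LATS2 separate in H2023 and H460 but not in A549, while ANKRD1 and AXL separate in every line. AJUBA separates in H2023 only, AMOTL1 in no line, and YAP1 and TEAD1 keep overlapping or near-overlapping values.

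CCN1, a secreted matricellular protein, had the largest log2 fold change of the 9 genes in H2023 and H460 on the log2(FPKM + 1) scale, while by the ratio of means AXL was ahead of it in H460. CCN1 protein binds integrins at the cell surface, and its gene lies on chromosome 1 at 86046444 to 86050272 (GRCh37, plus strand). In H2023 its level was 9.38 and 11.7 FPKM with control siRNA, and 117 and 91.1 FPKM with siRNA 28 and 30. The mean rose 9.84-fold, from 10.6 ± 1.66 to 104 ± 18.0 FPKM (SD, n = 2 each), with a log2 fold change of 3.18 ± 0.21 (SE) and an adjusted p of 0.0114 in limma. In H460 the controls were at 13.5 and 10.9 FPKM and the NRF2 siRNA libraries at 39.1 and 39.5 FPKM. CCN1 rose 3.23-fold there, with a log2 fold change of 1.62 ± 0.23 and an adjusted p of 0.0184. In A549 the values were 6.66 and 5.22 FPKM with control siRNA, 10.8 FPKM with siRNA 28 and 4.68 FPKM with siRNA 30. The A549 groups overlapped, because siRNA 30 gave a lower value than either control, and the adjusted p was 0.821.

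CCN2, a relative of CCN1 that takes part in matrix production and fibrosis, was higher in the same 2 lines without passing the test in the fit of each line. The gene lies on chromosome 6 at 132269316 to 132272512 (GRCh37, minus strand). In H2023 it was at 3.29 and 2.84 FPKM with control siRNA, 16.8 FPKM with siRNA 28 and 7.58 FPKM with siRNA 30, a ratio of 3.98 (log2 fold change 1.61 ± 0.38, adjusted p = 0.145, limma). In H460 it was at 14.3 and 8.71 FPKM with control siRNA, 29.8 FPKM with siRNA 28 and 16.5 FPKM with siRNA 30, a ratio of 2.01 (adjusted p = 0.135). Both siRNA libraries lay above both controls in these lines. In A549 the 4 values were 5.71 and 1.50 FPKM against 5.41 and 1.39 FPKM, with the first library of each group high and the second low. In every line the siRNA 28 library had the higher CCN2 value of the pair, and so had the control library with the same replicate number, so siRNA and replicate number cannot be told apart. With the replicate number as a block CCN2 passed in H2023 (adjusted p = 0.0319) and H460 (adjusted p = 0.0325). The block also raised the number of all genes called higher, from 46 to 413 in H2023 and from 957 to 1647 in H460.

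Among the angiomotin family, AMOTL2 rose and AMOTL1 did not pass the test in any line. These proteins are junctional scaffolds that bind YAP1 and hold it in the cytoplasm. AMOTL2 (chromosome 3 at 134074189 to 134094321, GRCh37, minus strand) was at 20.9 and 20.0 FPKM in H2023 controls, and at 75.4 and 74.7 FPKM with siRNA 28 and 30. The rise was 3.66-fold, from 20.5 ± 0.651 to 75.0 ± 0.552 FPKM (SD, n = 2 each), with a log2 fold change of 1.82 ± 0.15 and an adjusted p of 0.0203 in limma. In H460 AMOTL2 went from 12.5 and 11.4 FPKM to 29.8 and 27.4 FPKM, a 2.40-fold rise (log2 fold change 1.19 ± 0.23, adjusted p = 0.0275). In A549 its levels were higher at the outset and the groups overlapped, at 33.7 and 28.4 FPKM against 34.9 and 30.3 FPKM (adjusted p = 0.895).

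AMOTL1 (chromosome 11 at 94439597 to 94609913, GRCh37, plus strand) was at 5.04 and 6.49 FPKM in H2023 controls and at 6.11 and 6.14 FPKM after NRF2 siRNA. The corresponding H460 values were 4.53 and 5.48 FPKM against 4.86 and 7.86 FPKM, and in A549 9.78 and 11.0 FPKM against 11.8 and 8.80 FPKM. The groups overlapped in every line, with adjusted p of 0.894 (H2023), 0.590 (H460) and 0.976 (A549) in limma.

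AJUBA and LATS2 act on the kinase step. AJUBA is a LIM-domain scaffold that restrains the LATS kinases, and LATS2 is one of these kinases. In H2023 AJUBA was at 5.50 and 5.96 FPKM with control siRNA and at 15.4 and 24.7 FPKM with siRNA 28 and 30, a ratio of 3.50. The log2 fold change of 1.61 ± 0.27 did not pass the test when H2023 was fitted on its own (adjusted p = 0.0835, limma), but did when all 12 libraries shared one estimate of the spread (adjusted p = 0.0142). With that shared estimate the genes that rose in H2023 went from 46 to 443 of 14059. In H460 the AJUBA values were 9.11 and 5.39 FPKM against 7.22 and 10.9 FPKM, and in A549 19.6 and 22.1 FPKM against 24.4 and 17.1 FPKM. The groups were thus separate in H2023 and overlapped in the other lines.

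LATS2 showed smaller differences. In H2023 it was at 10.1 and 11.5 FPKM with control siRNA and at 14.9 and 14.8 FPKM with NRF2 siRNA, a ratio of 1.37 (adjusted p = 0.326, limma). In H460 it was at 7.54 and 7.73 FPKM against 14.9 and 11.7 FPKM, a ratio of 1.74 (adjusted p = 0.108, or 0.0199 with all 12 libraries in one fit). With all 12 libraries the calls over the 13446 H460 genes also went from 957 to 2329 higher and from 922 to 2256 lower. Both lines had no overlap between groups, while in A549 the 4 values of 3.21, 4.69, 4.08 and 3.70 FPKM overlapped.

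AXL, a receptor tyrosine kinase that binds the ligand GAS6 and is linked to mesenchymal features and drug resistance of lung cancer cells, was the only one of the 9 genes whose groups did not overlap in any of the 3 lines. In H460 it rose from 2.76 and 2.96 FPKM to 9.67 and 9.32 FPKM, a 3.32-fold difference with a log2 fold change of 1.44 ± 0.26 and an adjusted p of 0.0242 (limma). In H2023 it was at 22.8 and 27.1 FPKM with control siRNA, 45.4 FPKM with siRNA 28 and 104 FPKM with siRNA 30. The ratio of means was 3.00, but the siRNAs differed widely and the test was not passed (log2 fold change 1.43 ± 0.40, adjusted p = 0.181, or 0.0287 with all 12 libraries in one fit). In A549 AXL was at 18.3 and 19.7 FPKM with control siRNA and at 36.5 and 27.3 FPKM with NRF2 siRNA, a ratio of 1.68 (adjusted p = 0.221).

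The coactivator and its DNA-binding partner did not pass the test in any line. YAP1 (chromosome 11 at 101981178 to 102104155, GRCh37, plus strand) was at 24.6 and 22.4 FPKM in H2023 controls and at 33.5 and 21.9 FPKM after NRF2 siRNA (adjusted p = 0.731, limma). YAP1 was at 22.9 and 22.7 FPKM against 25.1 and 25.9 FPKM in H460, and at 22.0 and 23.9 FPKM against 25.9 and 20.0 FPKM in A549 (adjusted p = 0.661 and 0.985). In H460 alone did the siRNA libraries both exceed the controls. TEAD1 was at 21.2 and 31.3 FPKM against 29.9 and 38.0 FPKM in H2023, at 33.0 and 31.3 FPKM against 31.0 and 40.4 FPKM in H460, and at 51.1 and 45.5 FPKM against 51.6 and 46.9 FPKM in A549. Its groups overlapped in all lines, with adjusted p from 0.507 to 0.956.

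**Figure D2:**
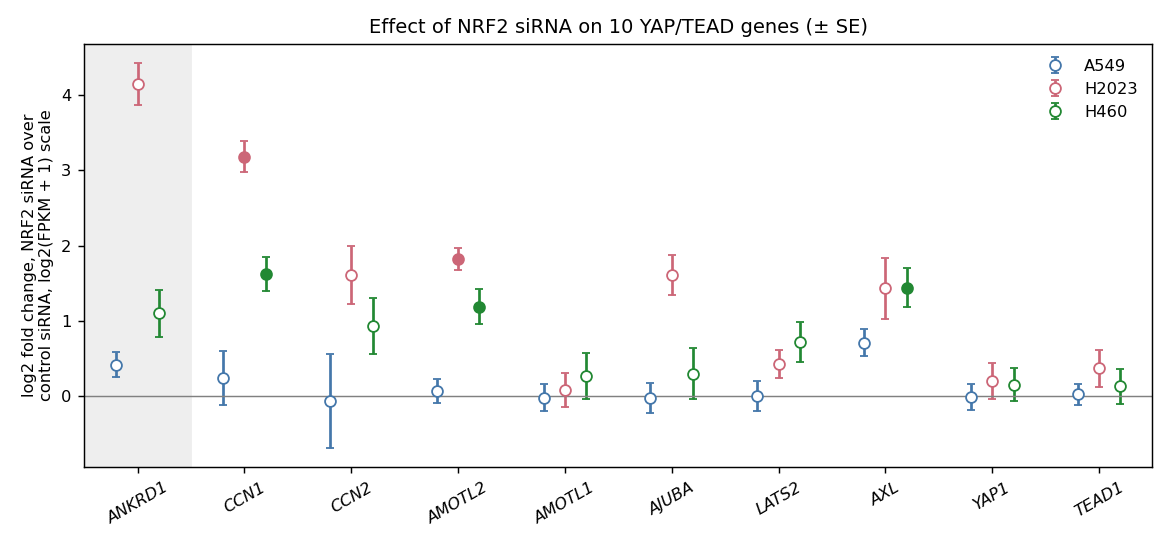
Log2 fold change (NRF2 siRNA over control siRNA, log2(FPKM + 1) scale, error bars SE from limma, 2 libraries against 2) of each gene in A549, H2023 and H460. Filled points passed an adjusted p of 0.05, and ANKRD1, on grey, is shown as a description with no call. CCN1 and AMOTL2 are filled in H2023 and H460 and AXL in H460, and no A549 point is filled.

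Counted together, 2 of the 9 genes other than ANKRD1 rose in H2023 (CCN1 and AMOTL2) and none fell, where 0.327% of the 14059 genes tested in that line rose and 0.583% fell. In H460, 3 of 9 rose (CCN1, AMOTL2 and AXL) and none fell, where 7.12% of genes rose and 6.86% fell. In A549 none of the 9 passed the test in limma, and 1 of them, AXL, had an unadjusted p under 0.05 (8.27% of all genes were higher by this measure), where 0.122% of genes rose and 0.554% fell. At an unadjusted p under 0.05, 5 of the 9 genes were higher in H2023 and 5 in H460, against 10.2% and 17.0% of all genes. The 2 NRF2 siRNA libraries both lay above the 2 controls for 6 of 9 genes in H2023 (27.0% of all genes), 6 of 9 in H460 (31.1%) and 1 of 9 in A549 (25.2%). For none of the 9 did both lie below both controls, against 22.0%, 31.6% and 20.5% of all genes.

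The median log2 fold change of the 9 genes was 1.43 in H2023, 0.72 in H460 and -0.00099 in A549. Over all genes tested the medians were 0.02, -0.0083 and 0.022. The 90th percentile of single genes was 0.63 in H2023, 1.01 in H460 and 0.45 in A549, and 5, 3 and 1 of the 9 genes lay above it. Against the control mean, the median of the 9 genes was 0.85 with siRNA 28 and 1.08 with siRNA 30 in H2023, and 0.88 and 0.56 in H460.

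The number of calls depended on single libraries, over all genes as well as among the 9. Without the first H2023 control library none of the 9 genes passed (CCN1 log2 fold change 3.03, adjusted p = 0.0587 and AMOTL2 1.85, adjusted p = 0.176), and 0 of 13720 genes rose or fell in limma, although before adjustment 643 had p under 0.05 in the upward and 338 in the downward direction. Without the second, CCN1 was the 1 gene of 13714 that rose (adjusted p = 0.0494). Without the siRNA 28 or siRNA 30 library 5 of the 9 rose, while the genes that rose in the line went from 46 to 731 and 772. In H460 none of the 9 passed without either control library, where 0 of 13141 and 1 of 13135 genes rose, against 957 with all libraries. The log2 fold changes of CCN1, AMOTL2 and AXL in H460 stayed between 1.14 and 1.76 when any library was left out.

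The effect of NRF2 siRNA was then compared between lines in one fit of all 12 libraries. These comparisons share the H2023 libraries. None of the 9 genes passed for H2023 against A549, where 0.00864% of 11571 genes had a larger log2 fold change in H2023 and 0.0% a smaller one, and 3 of the 9 had a larger one at an unadjusted p under 0.05, as had 2.95% of all genes. The first share counts ANKRD1, whose values chose the group, so nothing is read from it. The difference was 1.76 ± 0.22 (log2, SE) for AMOTL2 (adjusted p = 0.0532, limma), 2.93 ± 0.43 for CCN1 (adjusted p = 0.0952) and 1.64 ± 0.42 for AJUBA (adjusted p = 0.537). AMOTL2 passed in 5 and CCN1 in 3 of the 21 alternative settings tried for this difference, with adjusted p from 0.00169 to 0.376 and from 0.0163 to 0.598. Without the A549 siRNA 28 library CCN1 passed (3.46, adjusted p = 0.0211).

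Against H460, which shares the polyA protocol, 0 of the 9 genes passed, where 2.02% of genes had a larger log2 fold change in H2023 and 1.3% a smaller one. These shares depended on the fit, since with only the 8 libraries of H2023 and H460 2 genes had a larger and 0 a smaller log2 fold change in H2023, and with 1 library left out the larger ones numbered from 5 to 621. CCN1 had the smallest adjusted p (0.0709, limma), with a log2 difference of 1.56 ± 0.43. It was followed by AJUBA at 1.31 ± 0.42 (adjusted p = 0.103) and AMOTL2 at 0.63 ± 0.22 (adjusted p = 0.125), and these 3 genes also had an unadjusted p under 0.05, as had 13.2% of all genes in that direction. For AXL the difference was -0.0078 ± 0.44. Without the A549 siRNA 28 or siRNA 30 library, which enters this contrast only through the shared spread and the set of genes tested, CCN1 passed (adjusted p = 0.0449 and 0.0447). CCN1 passed in 2 of the 21 alternative settings tried for this difference. On simulated data this contrast gave more false calls than its nominal rate. A response of CCN1, AMOTL2 or AJUBA particular to H2023 was not shown against H460.

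Before knockdown, H2023 and H460 already differed in some of the genes. With control siRNA, AXL was 8.71-fold higher in H2023 (24.9 against 2.86 FPKM, log2 difference 2.74 ± 0.18, adjusted p = 0.000248, limma) and AMOTL2 was 1.72-fold higher (20.5 against 11.9 FPKM, adjusted p = 0.0104). AMOTL2 no longer passed without the first H2023 control library (adjusted p = 0.0796) or the second (0.0623). CCN2 was 3.75-fold higher in H460 (11.5 against 3.06 FPKM, adjusted p = 0.00486). Thus 2 of the 9 genes were higher and 1 lower in H2023, where 24.2% of 14039 genes were higher and 24.6% lower. The mean control level of CCN1 was 10.6 FPKM in H2023 and 12.2 FPKM in H460 (adjusted p = 0.466).

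In the 6 NRF2 siRNA libraries alone, none of the 9 genes passed between the siRNAs, and neither did any of all genes (0.0% of 15716 in either direction, limma with line as a covariate). In one fit of all 12 libraries 698 genes were higher and 349 lower with siRNA 28, none of them among the 9. CCN2 had the only unadjusted p under 0.05 among the 9 (11.1% of all genes were higher with siRNA 28 by this measure), with siRNA 28 above siRNA 30 by 1.10 ± 0.18 on the log2 scale (adjusted p = 0.126). For AXL siRNA 30 was the higher library in H2023 and the lower one in A549 and H460.

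Other genes of the pathway were taken from lists of known targets and regulators. The share of all genes that rose, beside which the counts of each list stand, was 0.327% in H2023, 7.12% in H460 and 0.122% in A549, and the share that fell was 0.583%, 6.86% and 0.554%. Of the further YAP/TEAD target genes, 15 were tested in A549, 15 in H2023 and 16 in H460. In H2023 1 rose, NUAK2, a stress-activated kinase, from 3.93 and 3.91 FPKM to 12.4 and 14.9 FPKM (log2 fold change 1.57 ± 0.21), with an adjusted p of 0.04998, just inside the threshold of 0.05. In H460 1 rose, NT5E, the CD73 ecto-nucleotidase (8.50 and 10.5 FPKM to 45.8 and 41.3 FPKM, log2 fold change 2.09 ± 0.24, adjusted p = 0.0127), and 1 fell, ASAP1 (48.6 and 43.3 FPKM to 18.0 and 17.4 FPKM, log2 fold change -1.33). None passed in A549, where the differences of CCDC80 (1.05, adjusted p = 0.157) and NT5E (0.90, adjusted p = 0.436) had the largest size. The list's medians were 0.34 in H2023 (0.22 to 0.52 with 1 library left out), 0.15 in H460 (-0.23 to 0.79) and 0.031 in A549 (-0.012 to 0.073). The H460 median counts ARHGEF17 (0.367 and 1.86 FPKM in controls), which entered the test only through its higher siRNA libraries (4.08 and 9.11 FPKM).

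Of the Hippo kinases and regulators, 0 of 18 passed in A549, where WTIP (0.64, adjusted p = 0.301) and LIMD1 (-0.52, adjusted p = 0.287), LIM-domain relatives of AJUBA, had the largest differences. None of 18 passed in H2023, where the regulators WTIP (1.48, adjusted p = 0.333) and WWC1 (1.42, adjusted p = 0.0586) had the largest differences. In H460 2 of 19 passed upward and 2 downward, where 6.86% of all genes passed downward. The higher ones were WTIP (0.757 and 1.02 FPKM to 2.90 and 2.93 FPKM) and the scaffold AMOT (0.442 and 0.704 FPKM to 2.44 and 3.02 FPKM). AMOT was below 1 FPKM in both controls and WTIP in one of them, so each entered the H460 test only through its higher siRNA libraries, and the upward count is not read against the share. AMOT was not tested in the other lines, where it stayed below 1 FPKM. Those that fell were the kinase cofactor MOB1A (43.5 and 52.9 FPKM to 20.1 and 23.5 FPKM) and the kinase STK3, known as MST2 (13.3 and 13.7 FPKM to 4.42 and 6.96 FPKM). Of the YAP1 paralog and TEAD partners, 1 of 5 rose in H460, TEAD2, from 10.0 and 10.3 FPKM to 29.9 and 19.7 FPKM (adjusted p = 0.0416, limma). In H2023 the YAP1 paralog WWTR1, which encodes TAZ, was at 43.9 and 53.0 FPKM against 96.0 and 86.8 FPKM without passing the test (log2 fold change 0.91 ± 0.17, adjusted p = 0.104), and TEAD2 differed by 0.66 (adjusted p = 0.140). None of 6 genes passed there or in A549, where WWTR1 (0.47) and TEAD2 (0.32) had the largest differences.

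Several of the 9 genes are also controlled by other pathways, so lists for these were counted beside them. Of SRF/MRTF cytoskeletal genes, 1 of 15 rose in H2023, the actin-binding tropomyosin gene TPM1 (118 and 129 FPKM to 313 and 335 FPKM, adjusted p = 0.0336, limma). In H460 1 of 15 rose, ACTA2 (log2 fold change 1.46), and 1 fell, TPM4 (-1.59). In A549 0 of 14 passed, with TPM1 and TAGLN both at a log2 fold change of 0.56 (adjusted p = 0.277 and 0.352). The median log2 fold change of this list was 0.28 in H2023 (0.23 to 0.59 with 1 library left out), 0.046 in H460 (-0.23 to 0.28) and 0.11 in A549 (-0.026 to 0.20).

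Of the TGF-beta response genes, 3 of 11 rose in H460, where 7.12% of all genes did: PMEPA1, a feedback inhibitor of TGF-beta signalling (3.49 and 1.30 FPKM to 73.2 and 30.3 FPKM), TGFBI (log2 fold change 1.33) and COL1A1 (1.23). None of 11 passed in H2023, where PMEPA1 was at 12.7 and 24.1 FPKM against 30.9 and 102 FPKM (adjusted p = 0.271) and LTBP2 differed by 1.34 (adjusted p = 0.380). None of 10 passed in A549, where PMEPA1 (0.95) and TGFB1 (0.61) had the largest differences. The median of this list was 0.95 in H460 (0.84 to 1.05 with 1 library left out), 0.73 in H2023 (0.29 to 1.28) and 0.058 in A549 (-0.071 to 0.18). In H460 LTBP2 (0.243 and 0.402 FPKM in controls) and SMAD7 (0.516 and 1.16 FPKM) entered the test only through their higher siRNA libraries. The H460 median is the value of SMAD7 itself, so nothing is read from it. Of the immediate-early genes, 3 of 9 rose in H460, against the same 7.12% (IER2, JUNB and DUSP1, by 1.68, 1.69 and 2.25 on the log2 scale) and 1 fell, FOSL1, a component of AP-1, from 71.4 and 52.4 FPKM to 20.2 and 5.71 FPKM. None passed in H2023, where EGR1 (1.41, adjusted p = 0.276) and IER3 (1.07, adjusted p = 0.215) had the largest differences, or in A549, where IER3 (0.77) and FOSL1 (-0.77) did. In H2023 EGR1 was at 0.686 and 0.466 FPKM in controls and at 6.13 and 1.43 FPKM after NRF2 siRNA. It thus entered the test only through its higher siRNA libraries, and nothing is read from its place. The list's medians rested on single libraries, at 0.45 in H2023 (0.21 to 0.66 with 1 library left out), -0.50 in H460 (-1.33 to 1.49) and -0.13 in A549 (-0.63 to 0.70). The part of these pathways in the values of the 9 genes was not tested.

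**Figure D3:**
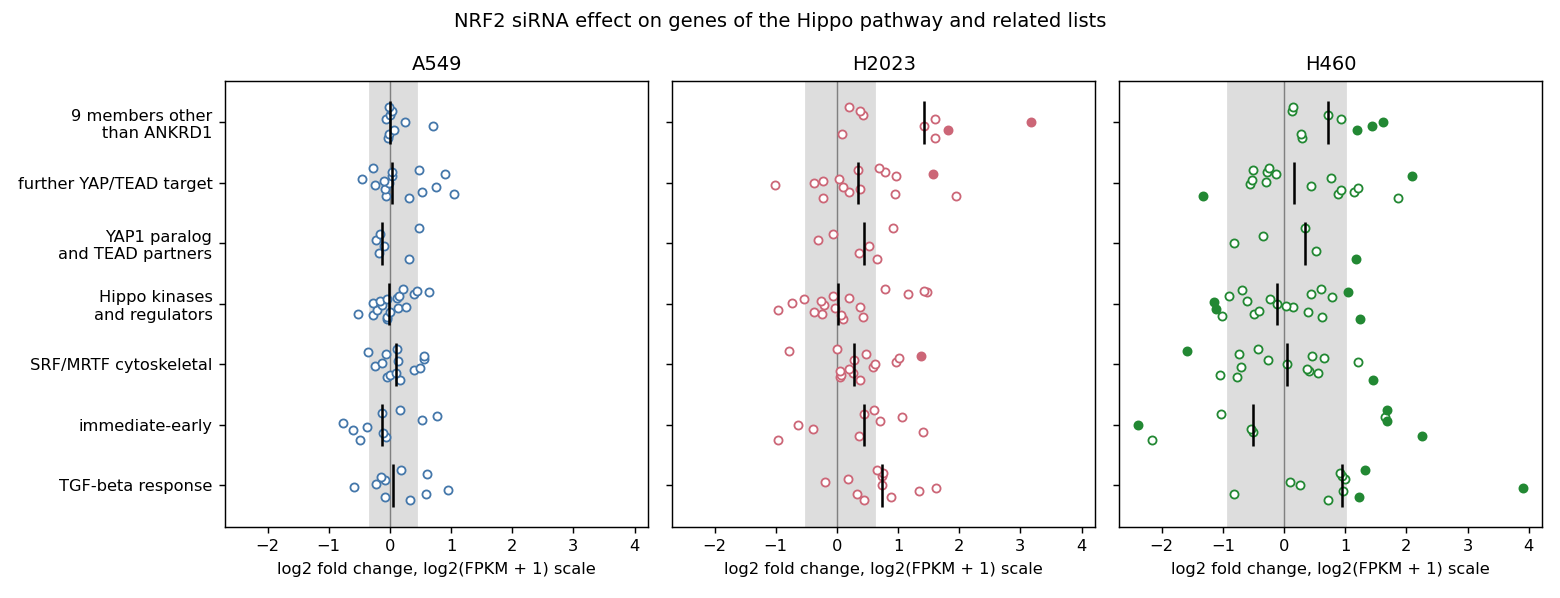
Log2 fold change (log2(FPKM + 1) scale) of each tested gene by list and line, with filled points past an adjusted p of 0.05, black bars the list median, and grey the 10th to 90th percentile of all genes. The grey band is the spread of single genes, not of medians. Of the 9 genes, 5 lie to its right in H2023, 3 in H460 and 1 in A549.

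Of the epithelial marker genes, 1 of 6 tested rose in H2023. This was CDH1, which encodes E-cadherin, a junction protein that signals to the Hippo kinases, with values from 12.6 and 8.05 FPKM to 65.0 and 58.3 FPKM (log2 fold change 2.5 ± 0.24, adjusted p = 0.0280, limma). The summed level of the list in H2023 went from 2810 to 3390 FPKM in controls to 6010 to 6340 FPKM after NRF2 siRNA. This sum was mostly KRT7, KRT8 and KRT18. The H2023 groups overlapped for EPCAM (11.1 and 6.23 FPKM against 15.9 and 8.76 FPKM) and KRT19 (171 and 99.6 FPKM against 418 and 164 FPKM). In A549 the summed levels overlapped, from 6990 to 10200 FPKM against 8730 to 10000 FPKM, and none of 6 passed, KRT19 (1.08) and KRT18 (0.22) having the largest differences. In H460 the sums were 1160 to 1360 FPKM against 1770 to 2640 FPKM, also with none passing, KRT8 (1.10, adjusted p = 0.0808) and KRT7 (1.0, adjusted p = 0.0519) having the largest differences. Of the immune markers CD14 rose in H460, from 1.77 and 5.49 FPKM to 17.6 and 19.4 FPKM (adjusted p = 0.0288). The endothelial markers were too low to be tested in any line, and of the fibroblast markers 1 was tested in A549, 0 in H2023 and 3 in H460, none of which passed. The part of these shifts in the values of the 9 genes was not tested.

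Across the 12 libraries, the genes closest to ANKRD1 were ranked by Pearson's r of log2(FPKM + 1) after subtraction of the line's control mean, over 5554 genes that varied by at least 1. Each r is a description, since the points share lines and control means. The first 6 were ATXN10 (r = 0.976), TXNRD2 (0.970), COL26A1 (0.969), PTPRF (0.965), TUFT1 (0.964) and SFT2D3 (0.959). ATXN10 went from a mean of 46.7 to 123 FPKM in H2023, PTPRF, a receptor-type phosphatase, from 29.2 to 79.2 FPKM and TUFT1 from 9.20 to 42.9 FPKM. Of the 9 genes, AJUBA came at rank 21 (r = 0.949), CCN1 at rank 26 (0.944), AMOTL2 at rank 61 (0.918), AXL at rank 330 (0.744) and CCN2 at rank 365 (0.730). AMOTL1, LATS2, TEAD1 and YAP1 varied by less than 1 and were not ranked. Because ANKRD1 differed most in H2023, r rests mainly on the H2023 siRNA libraries and is no measure apart from the H2023 fold change.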

How the data were processed

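RNA-seq of 12 libraries was analysed. The authors deposited FPKM values per gene and library, and gene-wise DESeq2 tables (mean normalised count, log2 fold change, its SE, statistic and p-values), which hold the study's own comparisons and were not used. The study's methods name TopHat and Cufflinks with hg19, whereas the submitters' processing notes list cutadapt 1.15, STAR 2.5.3a, Cuffnorm, HTSeq and GRCh37.p13, so the aligner behind the FPKM values is uncertain. FPKM is relative to each library's total, so a few abundant transcripts can shift all others. Libraries were made with a strand-specific kit, but whether reads were counted by strand was not given in the sources used here. Opposite-strand transcripts overlap CCN2, AMOTL1, LATS2, AXL, TEAD1 and YAP1, and same-strand ones overlap AMOTL2 and AJUBA, and their reads may not be separable.

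Values under 1e-06 (12710) were set to 0, and 96.1% of the 57815 gene IDs were matched to a symbol. No library pair was identical. Genes at 1 FPKM or more in at least 2 of 4 libraries of a line were tested on log2(FPKM + 1) with limma 3.58.1 in R 4.3.3, two-sided, with a mean-dependent prior variance and Benjamini-Hochberg adjustment over all genes tested (threshold 0.05). All 10 genes passed this filter in every line. This scale understates changes of genes near 1 FPKM, and ratios are of mean FPKM. Differences between lines were contrasts in one fit of all 12 libraries, siRNA 28 against 30 was tested in the 6 NRF2 siRNA libraries with line as covariate, and control levels were compared between H2023 and H460. The scripts were tested on simulated data, where the H2023 against H460 contrast gave more false calls than its nominal rate. The members and lists were chosen with earlier results of these data known, so no pattern among them is independent support. All 10 genes are named. Of each other list at most 4 genes per line are named, those past the threshold by smallest p or, with none, the 2 of largest absolute log2 fold change; of the fibroblast, endothelial and immune lists those past the threshold alone are printed. Genes like ANKRD1 are the 6 of highest r. Alternatives were other pseudocounts (0.1 and 0.5), a filter at 5 FPKM, no filter, median ratio scaling, mitochondrial transcripts left out, no mean-dependent prior, one fit of all libraries or of the 8 of a pair of lines, a replicate block and each library left out. Gene positions are those of GENCODE lifted to GRCh37, and promoters of RefSeq on GRCh38.p14.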

Additional observations from a re-analysis of the deposited data

How the results depend on the processing

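CCN1 in H2023 passed in 11 of 13 alternatives (log2 fold change 3.00 to 3.35, adjusted p 5.46e-05 to 0.165) and AMOTL2 in 10 of 13 (1.79 to 1.94, 0.000151 to 0.176). In H460, CCN1 (1.48 to 1.80), AMOTL2 (1.14 to 1.37) and AXL (1.41 to 1.70) each passed in 10 of 13. Without a filter on low values no member passed in H2023 or H460 (0 and 0), nor did any of 31160 and 29735 genes (2252 and 3077 were higher at an unadjusted p under 0.05). In that setting 2 passed for the H2023 effect against that of A549, where all genes with a larger effect went from 1 to 161, and 0 were lower in H2023 than in H460 with control siRNA. In a fit of all 12 libraries 4 members rose in H2023, while the genes that rose went from 46 to 443 of 14059. For the H2023 effect against that of A549, median ratio scaling gave 1 (of 2 genes with a larger effect), mitochondrial transcripts left out 2 (of 4), and pseudocounts of 0.1 and 0.5 gave 1 each (of 3). The members' median in H2023 was 0.85 with siRNA 28 and 1.08 with siRNA 30, and in H460 0.89 with mitochondrial transcripts left out. That scaling moved the median of all genes from -0.00834 to 0.146 in H460, from 0.0195 to 0.114 in H2023 and from 0.0224 to -0.0699 in A549, and from -0.0299 to 0.186 for control levels of H2023 against H460. It turned the calls from 957 higher and 922 lower to 1106 and 527 in H460, from 234 and 150 to 75 and 121 for the H2023 effect against that of H460, and from 3404 and 3453 to 4591 and 2556 for the control levels. It also reversed AMOTL2 (-0.037) and TEAD1 (-0.078) in A549, YAP1 for the H2023 effect against that of H460 (-0.0068, and -0.049 with median ratio scaling) and the control level of CCN1 (0.01). LATS2 in A549 reversed with pseudocounts of 0.1 (0.0031) and 0.5 (0.00086). None of these reversed values passed the test.

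With 1 library left out, where a lone library is assumed to vary like the others, the number of members that rose ranged from 0 to 5 in H2023 and from 0 to 4 in H460, from 0 to 1 for the H2023 effect against that of A549 and from 0 to 1 against that of H460, and from 1 to 2 for the control levels. The median in H2023 ranged from 0.85 to 1.53. Log2 fold changes whose sign turned ranged in A549 from -0.28 to 0.77 (CCN1), -0.78 to 0.65 (CCN2), -0.21 to 0.17 (AMOTL1), -0.052 to 0.19 (AMOTL2), -0.27 to 0.22 (AJUBA), -0.22 to 0.22 (LATS2), -0.054 to 0.11 (TEAD1) and -0.19 to 0.17 (YAP1). In H2023 they ranged from -0.072 to 0.24 (AMOTL1) and -0.094 to 0.49 (YAP1), and in H460 from -0.031 to 0.57 (AMOTL1), -0.034 to 0.63 (AJUBA) and -0.052 to 0.32 (TEAD1). For the H2023 effect against that of A549 they ranged from -0.088 to 0.30 (AMOTL1) and -0.082 to 0.51 (YAP1), and against that of H460 from -0.48 to 0.11 (AMOTL1), -0.60 to 0.58 (AXL), -0.032 to 0.51 (TEAD1) and -0.25 to 0.34 (YAP1). For siRNA 28 against siRNA 30 they ranged from -0.30 to 0.19 (AMOTL1) and -0.57 to 0.23 (AXL), and for the control levels from -0.59 to 0.073 (AJUBA) and -0.024 to 0.11 (YAP1). The cause was not tested.

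Libraries with the same replicate number share no stated batch, and the correlation of their deviations was -0.0321 for the A549 libraries, 0.312 for H2023 and 0.163 for H460, so the numbers were not taken to pair the samples. With a replicate block 5 members rose in H2023 (CCN2, AJUBA and AXL in addition), 4 in H460 and 0 in A549, and the calls over all genes went from 46 higher and 82 lower to 413 and 298 in H2023, from 957 and 922 to 1647 and 1530 in H460, and from 17 and 77 to 25 and 65 in A549.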
